A study of Homo sapiens with 12 samples.

Results

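The mitosis genes are a list of 39 genes that act in the G2 phase and in mitosis: entry kinases and cyclins, spindle checkpoint and anaphase-promoting complex genes, kinetochore and centromere genes, spindle motors, cytokinesis genes and proliferation markers. The rule takes them by gene function and uses no measured value, although the list was drawn up with earlier results of these data known. Each gene was read from a probe set that names it alone, and where there were several, from the brightest over all arrays. 36 of the 39 had such a probe set, out of 17958 genes measured this way. BUB1B, KIF20A and PTTG1 had none and are outside every count of array values that follows. They do have promoter windows and are inside the promoter shares and window counts.

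The measurements come from BT549, a breast cancer cell line. Its cells carried a pool of siRNAs against c-Jun, or a control siRNA, for 72 hours, and then received TNFα or vehicle for 6 hours. TNFα is an inflammatory cytokine, and c-Jun, encoded by JUN, pairs with other proteins to form AP-1, a transcription factor. The 4 groups, c-Jun siRNA plus TNFα, c-Jun siRNA plus vehicle, control siRNA plus TNFα, and control siRNA plus vehicle, hold 3 gene arrays each, 12 in all. All groups were transfected, so no untransfected cells enter any comparison, and every value is from a single line. Levels are given on the log2 scale for each probe set, and a log2 fold change is a difference of group means on that scale.

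Mitosis begins when cyclin-dependent kinase 1, bound to cyclin A or B, is switched on by CDC25 phosphatases, with Polo-like and Aurora kinases acting beside it. Kinetochores then tie chromosomes to a spindle built by kinesin motors. The spindle checkpoint holds back the anaphase-promoting complex until each chromosome is attached, after which cyclins and securin are destroyed and the cell divides. Most of these genes are transcribed late in the cell cycle. Their promoters are known for a cell cycle homology region (CHR), bound by the DREAM complex in resting cells and by MYB-MuvB and FOXM1 in dividing ones, and for CCAAT boxes, bound by NF-Y.

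Both elements were searched for by letters in RefSeq promoter windows on GRCh38.p14, from 250 bases before to 50 bases after each annotated start. The CHR was taken as TTTGAA or TTCGAA, the CCAAT box as CCAAT and the AP-1 site as TGANTCA, each on either strand. Windows were given for 32 of the 39 genes. The stretches below are the 100 bases before the start, 5′ to 3′ on the gene's own strand, with the letters of both elements in capitals (a CHR reads TTCAAA and a CCAAT box ATTGG where it lies on the other strand). They were chosen to hold both elements within these 100 bases and to lie outside annotated genes, so both traits come from the choice. Genes without the pair there could not appear. Within that limit they set genes of different responses side by side. CDC20, PLK1 and KIF11 were lower with TNFα under both siRNAs, KIF4A and HMMR changed differently under the siRNAs, and CCNB2 passed no test.
CDC20: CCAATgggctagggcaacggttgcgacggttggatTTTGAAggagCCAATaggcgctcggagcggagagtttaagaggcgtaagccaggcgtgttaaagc
PLK1: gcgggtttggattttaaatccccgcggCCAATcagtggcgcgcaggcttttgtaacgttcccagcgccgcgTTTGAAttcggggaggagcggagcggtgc
KIF11: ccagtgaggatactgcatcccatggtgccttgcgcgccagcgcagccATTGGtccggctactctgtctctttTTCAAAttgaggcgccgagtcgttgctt
KIF4A: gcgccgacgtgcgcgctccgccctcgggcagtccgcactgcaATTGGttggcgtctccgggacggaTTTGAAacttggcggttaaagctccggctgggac
HMMR: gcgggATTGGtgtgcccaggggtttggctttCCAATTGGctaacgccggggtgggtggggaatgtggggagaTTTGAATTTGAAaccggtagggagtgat
CCNB2: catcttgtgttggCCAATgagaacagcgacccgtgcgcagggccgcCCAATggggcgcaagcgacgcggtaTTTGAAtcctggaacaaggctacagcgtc

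The stretches lie at chr1:43358881-43358980, chr16:23678789-23678888, chr10:92593030-92593129, chrX:70290004-70290103, chr5:163460532-163460631 and chr15:59105046-59105145, all on the plus strand and outside annotated genes. In 5 of the 6 the first CHR letters start between -34 and -28 from the start, with a CCAAT box upstream of them. In CDC20 the CHR letters start at -65, with a CCAAT box on each side. In HMMR a second CHR match starts at -22, and a CCAAT and an ATTGG overlap. Across the windows given, 24 of 32 mitosis genes (75%) held CHR letters, against 19.5% of all 27305 genes with a window. CCAAT was found in 26 of 32 (81.2%), against 39.7% of all genes. Both stood in the same window for 62.5% of the mitosis genes and 7.85% of all genes. The mitosis genes have more than 1 window each in some cases, and counted per window the CHR shares were 64.3% of 42 windows and 16.4% of all windows. The AP-1 letters were in none of the 32, and in 9.37% of all genes, which says only that these letters are not in these windows. CCNB2 and KIF4A have CHR letters at -29 and -34, and a CCAAT box at -54 and -58, on opposite strands. CCNB2 has further CCAAT boxes, at -244, -120 and -87, and KIF4A has none.

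**Figure D1:**
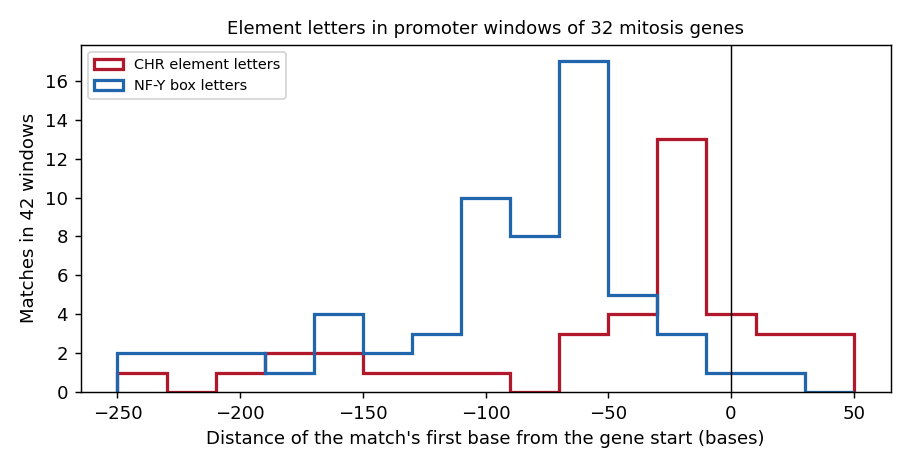
Stepped lines count matches to the CHR letters (red) and to CCAAT, the NF-Y box (blue), in the 42 windows of 32 mitosis genes, on the y axis, by the distance of the match's first base from the gene start in bases, on the x axis. The CHR matches gather just before the start and the CCAAT matches upstream of them.

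JUN, the target of the siRNA, was lower with the c-Jun siRNA and higher with TNFα. It read 10.36, 10.33 and 10.39 with c-Jun siRNA plus TNFα, 9.82, 9.85 and 9.81 with c-Jun siRNA plus vehicle, 11.12, 11.05 and 11.05 with control siRNA plus TNFα, and 10.36, 10.35 and 10.36 with control siRNA plus vehicle, with no overlap between groups except that c-Jun siRNA plus TNFα and control siRNA plus vehicle lay at the same level. The c-Jun siRNA left 61.1% of the control signal with TNFα and 69.5% with vehicle, with log2 fold changes of -0.71 (adjusted p = 9.26e-12) and -0.52 (adjusted p = 4.48e-10). Array medians lay between 5.62 and 5.68. All 8 mesenchymal markers checked for BT549 lay above the median gene, and 2 of 10 luminal and epithelial markers did, GATA3 and KRT18, while ESR1 and PGR, the hormone receptor genes, averaged 4.38 and 3.72 against 6.97 for the median gene. Of markers of other cells, 0 of 6 endothelial and 1 of 7 leukocyte genes (CD68) lay above the median gene, and the mean levels of these lists lay from 4.63 to 5.23 over all arrays. The array names carry a code read here as a position column, which is an inference: the c-Jun siRNA plus vehicle arrays all sit in column 5 and the c-Jun siRNA plus TNFα arrays in columns 7 and 9. One array labelled as the third replicate of c-Jun siRNA plus TNFα has a name that reads as a second run of the first.

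The mitosis genes are well expressed in these cells. All 36 lay above the median gene, with 12-array means from 9.16 to 12.1. Their changes were small. The pairwise log2 fold changes had a median standard error of 0.039, against 0.065 for all genes. In 11 of the 12 arrays the median deviation of the 36 from their group mean lay between -0.029 and 0.028, and it was 0.033 in replicate 3 of c-Jun siRNA plus vehicle, where 31 of the 36 stood above their group mean.

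**Figure D2:**
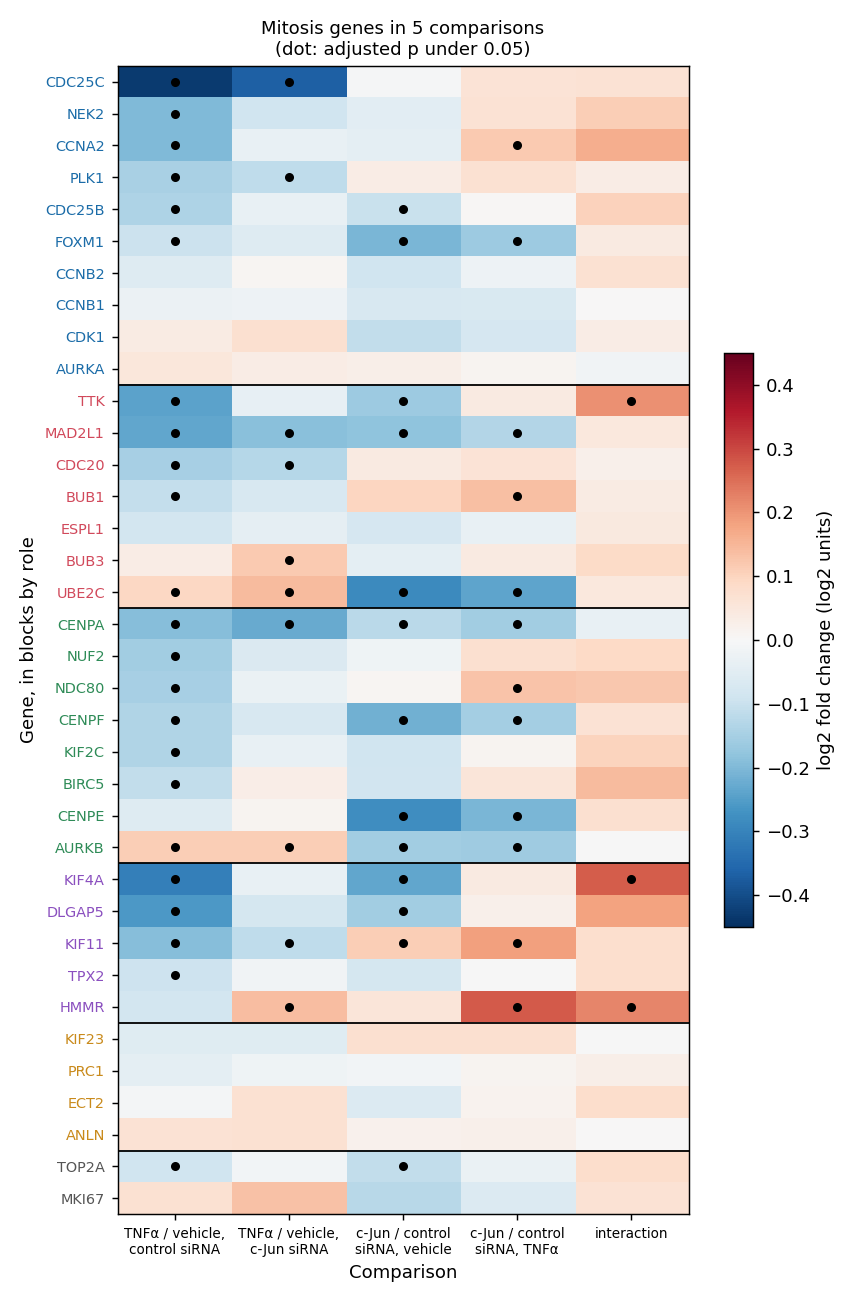
Each row is one of the 36 mitosis genes, in blocks by role (from the top: entry, checkpoint and anaphase-promoting complex, kinetochore and centromere, spindle, cytokinesis, chromosome), and each column a comparison, with the interaction last. Colour is the log2 fold change, red for higher and blue for lower, and a dot marks an adjusted p under 0.05. The first column, TNFα over vehicle with the control siRNA, holds 21 of the falls, and the 4 cytokinesis genes carry no dot.

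With the control siRNA, 6 hours of TNFα lowered most of these genes by a small amount. Of 36 genes, 21 fell and 2 rose at an adjusted p under 0.05, where 35.7% of all 17958 genes changed, 21.9% falling and 13.8% rising. The share that changed among the mitosis genes was 63.9%. All of them lie above the median gene, and with the dimmest 50% of genes left out 59.7% of 8979 genes changed, 36.5% falling and 23.3% rising, beside the same 63.9%. Their median log2 fold change was -0.10, against -0.04 over the brighter 8979 genes and -0.02 over all genes, and 29 of 36 were below 0. The largest fall was CDC25C, to 74.2% of the vehicle signal. RNA of bulk cells cannot tell fewer cells in G2 and mitosis from less of each transcript per cell.

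Among the entry genes 6 of 10 fell with TNFα under the control siRNA, and none rose. CDC25C, the phosphatase that removes the inhibitory phosphates from CDK1, read (probe set 8114425) 9.01, 8.996 and 8.96 with c-Jun siRNA plus TNFα, 9.38, 9.34 and 9.34 with c-Jun siRNA plus vehicle, 8.99, 8.84 and 8.96 with control siRNA plus TNFα, and 9.38, 9.34 and 9.37 with control siRNA plus vehicle. All 6 TNFα arrays were below all 6 vehicle arrays, and the c-Jun siRNA and control siRNA arrays overlapped under each treatment. Its log2 fold change with TNFα was -0.43 ± 0.042 (SE; adjusted p = 1.27e-07) under the control siRNA. CDC25B, the related phosphatase that starts CDK1 activation, fell at -0.14 (adjusted p = 0.00101). CCNA2, cyclin A2, fell at -0.20 (adjusted p = 0.000217), and NEK2, a centrosome kinase that separates the spindle poles, at -0.20 (adjusted p = 0.00245). PLK1, Polo-like kinase 1, fell at -0.145 (adjusted p = 0.00724), and FOXM1, the transcription factor that drives late cell cycle genes, at -0.10 (adjusted p = 0.0142). CDK1, CCNB1, CCNB2 and AURKA did not pass, with values from -0.06 to 0.05.

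Of the 7 checkpoint and anaphase-promoting complex genes, 4 fell and 1 rose. MAD2L1, the checkpoint protein that binds and restrains CDC20, read 9.39, 9.39 and 9.41 with c-Jun siRNA plus TNFα, 9.57, 9.56 and 9.63 with c-Jun siRNA plus vehicle, 9.51, 9.51 and 9.57 with control siRNA plus TNFα, and 9.77, 9.81 and 9.71 with control siRNA plus vehicle. The control siRNA plus vehicle arrays were the highest and the c-Jun siRNA plus TNFα arrays the lowest, while the other groups overlapped each other. Its fold change with TNFα under the control siRNA was -0.24 ± 0.037 (SE; adjusted p = 5.06e-05). TTK, the kinase that recruits the checkpoint to kinetochores, read 9.71, 9.75 and 9.70 with c-Jun siRNA plus TNFα, 9.75, 9.69 and 9.83 with c-Jun siRNA plus vehicle, 9.65, 9.69 and 9.70 with control siRNA plus TNFα, and 9.95, 9.90 and 9.91 with control siRNA plus vehicle. The control siRNA plus vehicle arrays alone were high, and the other 3 groups shared the range from 9.65 to 9.83. Its change was -0.24 ± 0.039 (SE; adjusted p = 6.22e-05). CDC20, the activator of the anaphase-promoting complex, read 11.59, 11.60 and 11.52 with c-Jun siRNA plus TNFα, 11.62, 11.80 and 11.67 with c-Jun siRNA plus vehicle, 11.49, 11.47 and 11.56 with control siRNA plus TNFα, and 11.62, 11.73 and 11.61 with control siRNA plus vehicle, and its TNFα arrays lay below its vehicle arrays under each siRNA. Its change was -0.15 ± 0.044 (SE; adjusted p = 0.0116) with the control siRNA. BUB1, a checkpoint kinase, changed by -0.11 (adjusted p = 0.0409). UBE2C, the ubiquitin-conjugating enzyme of the anaphase-promoting complex, went the other way, at 0.09 (adjusted p = 0.0399), and BUB3 and ESPL1, the cohesin-cleaving separase, did not pass.

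The kinetochore, centromere and passenger complex genes gave 6 falls and 1 rise among 8. CENPA, the histone H3 variant that marks centromeres, read 9.37, 9.44 and 9.41 with c-Jun siRNA plus TNFα, 9.62, 9.64 and 9.64 with c-Jun siRNA plus vehicle, 9.56, 9.55 and 9.58 with control siRNA plus TNFα, and 9.70, 9.75 and 9.82 with control siRNA plus vehicle, and no group overlapped another. It fell at -0.19 ± 0.037 (SE; adjusted p = 0.000374) with TNFα under the control siRNA. NDC80 and NUF2, partners in the complex that grips microtubules, fell at -0.15 (adjusted p = 0.00718) and -0.16 (adjusted p = 0.00503). KIF2C, a microtubule-depolymerising kinesin, fell at -0.14 (adjusted p = 0.0124), and CENPF, a large kinetochore protein, at -0.14 (adjusted p = 0.024). BIRC5, survivin, was called at -0.11 (adjusted p = 0.0487), although its TNFα arrays overlapped the vehicle arrays. AURKB, the kinase of the same passenger complex as survivin, instead rose. It read 11.07, 11.16 and 11.11 with c-Jun siRNA plus TNFα, 10.99, 11.05 and 10.98 with c-Jun siRNA plus vehicle, 11.28, 11.27 and 11.27 with control siRNA plus TNFα, and 11.15, 11.16 and 11.16 with control siRNA plus vehicle, with each TNFα group above the vehicle group of its siRNA. The rise with the control siRNA was 0.11 ± 0.030 (SE; adjusted p = 0.00708).

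The spindle genes gave 4 falls among 5. KIF4A, a chromosome-bound kinesin that also acts at the central spindle (probe set 8168146), read 10.39, 10.31 and 10.25 with c-Jun siRNA plus TNFα, 10.35, 10.33 and 10.37 with c-Jun siRNA plus vehicle, 10.29, 10.23 and 10.31 with control siRNA plus TNFα, and 10.54, 10.56 and 10.64 with control siRNA plus vehicle. The control siRNA plus vehicle arrays stood above every other array. Its fold change with TNFα was -0.31 ± 0.040 (SE; adjusted p = 5.56e-06), 80.9% of the vehicle signal. DLGAP5, a spindle assembly factor bound by Aurora A, read 10.63, 10.54 and 10.51 with c-Jun siRNA plus TNFα, 10.60, 10.62 and 10.70 with c-Jun siRNA plus vehicle, 10.51, 10.55 and 10.55 with control siRNA plus TNFα, and 10.86, 10.78 and 10.76 with control siRNA plus vehicle, again with control siRNA plus vehicle alone at the top, and changed by -0.26 ± 0.038 (SE; adjusted p = 2.49e-05). KIF11, the motor that pushes spindle poles apart, read 10.66, 10.62 and 10.62 with c-Jun siRNA plus TNFα, 10.75, 10.73 and 10.76 with c-Jun siRNA plus vehicle, 10.43, 10.44 and 10.47 with control siRNA plus TNFα, and 10.62, 10.67 and 10.63 with control siRNA plus vehicle. It was lowest with control siRNA plus TNFα, and its change with TNFα under the control siRNA was -0.19 ± 0.030 (SE; adjusted p = 4.46e-05). TPX2, the activator of Aurora A on the spindle, fell at -0.09 (adjusted p = 0.0262). HMMR, a spindle-associated hyaluronan receptor, did not pass, at -0.08 (adjusted p = 0.179).

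None of the 4 cytokinesis genes measured passed. KIF23 (a central spindle kinesin), ANLN (a contractile ring scaffold), PRC1 (a microtubule bundler) and ECT2 (the activator of RhoA at the furrow) had values from -0.05 to 0.07. TOP2A, the topoisomerase that untangles sister chromatids, fell at -0.09 (adjusted p = 0.0257). MKI67, the proliferation marker Ki-67, did not pass, at 0.07 (adjusted p = 0.395). 24 of the 36 genes had all 3 TNFα arrays below all 3 vehicle arrays and 2 had them above, where 27.6% and 17.6% of all genes did. All 36 are brighter than the median gene, and such shares were not taken over the brighter genes, here or in the other comparisons.

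Of the 23 calls, 13 stood in each of the 12 fits that left out 1 array, namely CCNA2, CDC25B, CDC25C, AURKB, MAD2L1, TTK, NDC80, NUF2, CENPA, KIF11, KIF4A, DLGAP5 and NEK2. The other 10 ended in at least 1 such fit, with values from -0.14 to 0.10 there: BIRC5 in 10 fits, UBE2C in 6, BUB1 in 5, CENPF in 4, TPX2 and TOP2A in 3, CDC20 and PLK1 in 2 (without replicate 2 of either group), FOXM1 in 2 (without TNFα replicate 3 or vehicle replicate 2), and KIF2C in 1 (without TNFα replicate 1). UBE2C was not called after quantile normalisation, at 0.09 (adjusted p = 0.0512), nor with arrays centred on their medians, at 0.09 (adjusted p = 0.0983). The count was 15 without control siRNA plus vehicle replicate 2, and 15 without control siRNA plus TNFα replicate 2. With the position column as a block 19 genes were called, and the calls of NDC80, BUB1, CENPF and BIRC5 ended. Within position column 7, which holds 2 arrays of each group, 18 genes were called, 16 of them falling, with a median of -0.11.

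**Figure D3:**
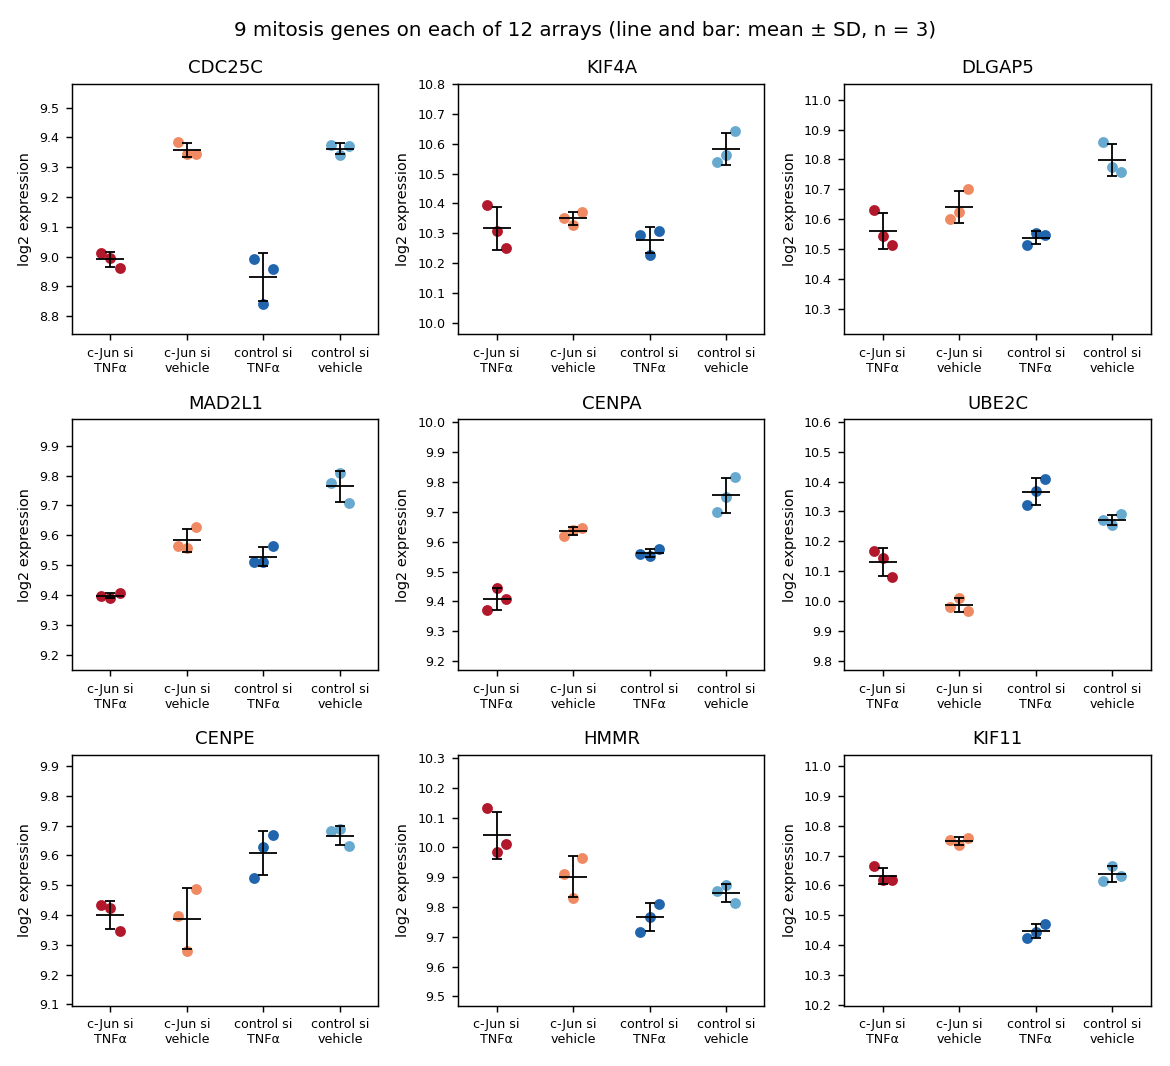
Each point is the log2 expression of 1 array for 9 of the mitosis genes, with the group mean as a line and its SD as a bar (n = 3). Groups run from left to right as c-Jun siRNA plus TNFα, c-Jun siRNA plus vehicle, control siRNA plus TNFα, and control siRNA plus vehicle. CDC25C is low in all TNFα arrays, and KIF4A is high only in control siRNA plus vehicle.

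With the c-Jun siRNA, TNFα lowered 6 of 36 genes and raised 4 (7 and 1 with each array centred on its median), where 29.6% of all genes changed, 18.3% falling and 11.3% rising. The share of mitosis genes that changed was 27.8%. With the dimmest 50% left out it was 30.6%, against 51.2% of 8979 genes, 31.9% falling and 19.3% rising. The median was -0.03, against -0.04 over the brighter 8979 genes and -0.02 over all genes. Groups of arrays were apart for 11 genes, 7 with TNFα below vehicle and 4 with TNFα above, where 23.6% and 15.3% of all genes were apart in those directions.

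The 6 that fell under the c-Jun siRNA all fell under the control siRNA too, and they are 28.6% of the 21 there. No array is shared between these comparisons, but the spread is pooled, and the overlap was not counted over all genes. CDC25C again led, at -0.37 ± 0.042 (SE; adjusted p = 1.34e-06), 77.6% of the vehicle signal. CENPA fell at -0.23 ± 0.037 (SE; adjusted p = 8.74e-05) and MAD2L1 at -0.19 ± 0.037 (SE; adjusted p = 0.000663). KIF11, PLK1 and CDC20 followed, at -0.12 (adjusted p = 0.00578), -0.11 (adjusted p = 0.039) and -0.13 (adjusted p = 0.0361).

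The 4 that rose were UBE2C, AURKB, HMMR and BUB3. UBE2C read 10.17, 10.14 and 10.08 with c-Jun siRNA plus TNFα, 9.98, 10.01 and 9.97 with c-Jun siRNA plus vehicle, 10.32, 10.37 and 10.41 with control siRNA plus TNFα, and 10.27, 10.26 and 10.29 with control siRNA plus vehicle, so each TNFα group stood above its vehicle group and each c-Jun siRNA group below its control siRNA group. It rose at 0.14 ± 0.035 (SE; adjusted p = 0.00335), and AURKB at 0.11 ± 0.030 (SE; adjusted p = 0.00934); both had also risen under the control siRNA. HMMR (probe set 8109712) read 10.13, 9.98 and 10.01 with c-Jun siRNA plus TNFα, 9.91, 9.83 and 9.96 with c-Jun siRNA plus vehicle, 9.72, 9.77 and 9.81 with control siRNA plus TNFα, and 9.85, 9.87 and 9.81 with control siRNA plus vehicle. Its c-Jun siRNA plus TNFα arrays were above all 9 others, and it rose at 0.14 ± 0.044 (SE; adjusted p = 0.0227). BUB3, a checkpoint scaffold protein, read 10.43, 10.28 and 10.31 with c-Jun siRNA plus TNFα, 10.20, 10.17 and 10.30 with c-Jun siRNA plus vehicle, 10.29, 10.30 and 10.31 with control siRNA plus TNFα, and 10.25, 10.24 and 10.32 with control siRNA plus vehicle, and the arrays of its TNFα and vehicle groups overlapped under the c-Jun siRNA. Its change was 0.12 ± 0.042 (SE; adjusted p = 0.0431). With each array centred on its median UBE2C was the rise that stood, while AURKB had 0.08 (adjusted p = 0.0811), HMMR 0.11 (adjusted p = 0.101) and BUB3 0.09 (adjusted p = 0.212). Over the 36 genes the TNFα fold changes under the c-Jun siRNA and the control siRNA correlated at r = 0.82, a description across genes that share their arrays. No such r was taken over all genes.

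Of these 10 calls, CDC25C, AURKB, MAD2L1, CENPA, KIF11 and UBE2C stood in every fit without 1 array, while BUB3 ended in 8, PLK1 in 3, CDC20 in 2 (without TNFα replicate 3 or vehicle replicate 2) and HMMR in 2 (without TNFα replicate 1 or vehicle replicate 2), with values from -0.10 to 0.12. No position column holds both groups, and with the column as a block the other 8 calls ended and 2 stood, CDC25C at -0.38 (adjusted p = 0.00484) and MAD2L1 at -0.26 (adjusted p = 0.0194).

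**Figure D4:**
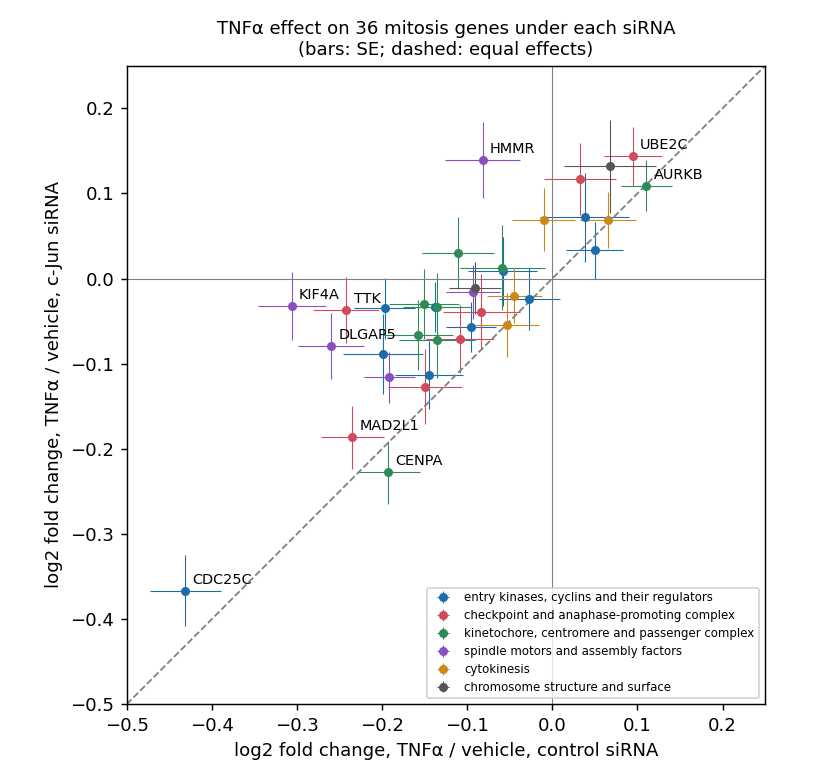
Each point is one of the 36 mitosis genes, coloured by role, with its log2 fold change with TNFα under the control siRNA on the x axis and under the c-Jun siRNA on the y axis. Bars are standard errors and the dashed diagonal marks equal changes. CDC25C is low on both axes, and KIF4A, TTK and HMMR lie above the diagonal.

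The difference between the TNFα effects was tested by the interaction, the change under the c-Jun siRNA minus the change under the control siRNA. It was called for 3 of 36 genes, all positive, where 5.47% of all genes were called, 1.88% positive and 3.59% negative. With the dimmest 50% left out 5 were called, all positive (13.9%), against 11.7% of 8979 genes, 4.37% positive and 7.32% negative. The 3 were KIF4A, TTK and HMMR. KIF4A had 0.27 ± 0.056 (SE; adjusted p = 0.00559): its TNFα change was -0.03 under the c-Jun siRNA and -0.31 under the control siRNA. TTK had 0.205 ± 0.055 (SE; adjusted p = 0.0349), with -0.04 under the c-Jun siRNA and -0.24 under the control siRNA. HMMR had 0.22 ± 0.063 (SE; adjusted p = 0.0472), with 0.14 under the c-Jun siRNA and -0.08 under the control siRNA. For KIF4A and TTK the c-Jun siRNA plus TNFα arrays overlapped the c-Jun siRNA plus vehicle arrays, and control siRNA plus vehicle alone was high. For HMMR c-Jun siRNA plus TNFα alone was high.

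DLGAP5 and CCNA2 came next, at 0.18 (adjusted p = 0.0645) and 0.16 (adjusted p = 0.0758), and did not pass. CDC25C, the gene with the largest TNFα change under each siRNA, had 0.06 ± 0.059 (SE; adjusted p = 0.667). The median interaction over the 36 was 0.07, against 0.01 over all genes, and 4 of the 36 were below 0. KIF4A was called in every fit without 1 array. TTK ended in 11 of those 12 fits and HMMR in 9, at values from 0.17 to 0.24, and 5 genes were called without c-Jun siRNA plus vehicle replicate 3. With the position column as a block KIF4A remained, at 0.33 (adjusted p = 0.0136).

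In vehicle-treated cells the c-Jun siRNA lowered 12 of the 36 genes and raised 1 (9 and 2 with each array centred on its median), where 28.9% of all genes changed, 14.5% falling and 14.4% rising. The share that changed was 36.1%, with more falls than rises. With the dimmest 50% left out 15 mitosis genes (41.7%) changed, 13 of them falling, against 51.5% of 8979 genes, 25.7% falling and 25.8% rising. The median was -0.08, against -0.01 over all genes. In 17 genes all 3 c-Jun siRNA arrays lay below all 3 control siRNA arrays and in 3 they lay above, where 20.2% and 19% of all genes did. These values share their control siRNA plus vehicle arrays with the TNFα comparison above, so the same high arrays enter both.

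By role, 2 of 10 entry genes, 3 of 7 checkpoint genes, 4 of 8 kinetochore genes and 2 of 5 spindle genes fell. UBE2C had the largest fall, at -0.29 ± 0.035 (SE; adjusted p = 3.44e-06), 82.1% of the control siRNA signal. CENPE, the kinesin that carries chromosomes to the spindle equator, read 9.43, 9.42 and 9.35 with c-Jun siRNA plus TNFα, 9.40, 9.28 and 9.49 with c-Jun siRNA plus vehicle, 9.53, 9.63 and 9.67 with control siRNA plus TNFα, and 9.68, 9.69 and 9.63 with control siRNA plus vehicle. Its c-Jun siRNA arrays were all below its control siRNA arrays under each treatment, and its TNFα arrays overlapped its vehicle arrays under each siRNA. It fell at -0.28 ± 0.050 (SE; adjusted p = 0.000256). CENPF read 10.68, 10.69 and 10.53 with c-Jun siRNA plus TNFα, 10.63, 10.70 and 10.79 with c-Jun siRNA plus vehicle, 10.75, 10.78 and 10.83 with control siRNA plus TNFα, and 10.90, 10.94 and 10.91 with control siRNA plus vehicle, again lower with c-Jun siRNA under each treatment, and fell at -0.22 ± 0.045 (SE; adjusted p = 0.00102). KIF4A fell at -0.23 ± 0.040 (SE; adjusted p = 0.000169), 85.1% of the control siRNA signal. FOXM1 read 11.31, 11.31 and 11.35 with c-Jun siRNA plus TNFα, 11.38, 11.38 and 11.39 with c-Jun siRNA plus vehicle, 11.52, 11.49 and 11.46 with control siRNA plus TNFα, and 11.59, 11.62 and 11.55 with control siRNA plus vehicle, and no c-Jun siRNA array reached a control siRNA array. Its change was -0.20 ± 0.029 (SE; adjusted p = 2.24e-05).

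MAD2L1, TTK, DLGAP5 and AURKB fell by values close to each other, at -0.18 (adjusted p = 0.000976), -0.16 (adjusted p = 0.00307), -0.16 (adjusted p = 0.00411) and -0.16 (adjusted p = 0.000502). CENPA, TOP2A and CDC25B completed the falls, at -0.12 (adjusted p = 0.0187), -0.11 (adjusted p = 0.0108) and -0.10 (adjusted p = 0.0142). KIF11 was the rise, at 0.11 ± 0.030 (SE; adjusted p = 0.00822). CDC25C, the leading gene with TNFα, had 0.00 ± 0.042 with the c-Jun siRNA. The cytokinesis genes again gave no call, with values from -0.06 to 0.07.

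Of the 13 calls, 10 stood in every fit without 1 array; without c-Jun siRNA replicate 1 CDC25B, CENPA and TOP2A ended, as did CDC25B without control siRNA replicate 1 and CENPA without control siRNA replicate 3, at values from -0.11 to -0.09. With the position column as a block 8 genes were called. BIRC5, at -0.16 (adjusted p = 0.0464), was among them, though it was not called without the block. The calls of CDC25B, MAD2L1, TTK, KIF11, DLGAP5 and TOP2A ended with the block. Within column 5, which holds 3 c-Jun siRNA arrays and 1 control siRNA array, the median was -0.09.

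Under TNFα the c-Jun siRNA lowered 7 of the 36 genes and raised 5, where 28.5% of all genes changed, 14.4% falling and 14.1% rising. The share among the mitosis genes was 33.3%, and it was the same with the dimmest 50% left out, where 50.7% of 8979 genes changed, 25.4% falling and 25.3% rising. The median was 0.015, against 0.00 over all genes. The arrays were apart for 12 genes, 7 with c-Jun siRNA below and 5 with it above, where 19.4% and 19.1% of all genes were. The 7 that fell were AURKB, MAD2L1, CENPA, CENPE, CENPF, UBE2C and FOXM1. All 7 had fallen with the c-Jun siRNA in vehicle too, where they are 58.3% of the 12. The arrays of these comparisons are not shared, but the spread is pooled, and the overlap was not counted over all genes.

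UBE2C fell at -0.24 ± 0.035 (SE; adjusted p = 3.18e-05), CENPE at -0.21 ± 0.050 (SE; adjusted p = 0.00364), FOXM1 at -0.165 ± 0.029 (SE; adjusted p = 0.000216) and AURKB at -0.16 ± 0.030 (SE; adjusted p = 0.000474). CENPA, CENPF and MAD2L1 fell at -0.16 (adjusted p = 0.00332), -0.15 (adjusted p = 0.0145) and -0.13 (adjusted p = 0.0114). Of the 7, 4 belong to the kinetochore, centromere and passenger complex group. KIF4A, TTK and DLGAP5, which had fallen in vehicle, had 0.04, 0.04 and 0.02 here.

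HMMR had the largest rise, at 0.28 ± 0.044 (SE; adjusted p = 8.6e-05), 121.1% of the control siRNA signal. KIF11 rose at 0.19 ± 0.030 (SE; adjusted p = 8.61e-05), as it had in vehicle. BUB1 read 10.63, 10.71 and 10.59 with c-Jun siRNA plus TNFα, 10.66, 10.69 and 10.79 with c-Jun siRNA plus vehicle, 10.52, 10.45 and 10.55 with control siRNA plus TNFα, and 10.63, 10.61 and 10.61 with control siRNA plus vehicle, with c-Jun siRNA above control siRNA under each treatment, and rose at 0.14 ± 0.040 (SE; adjusted p = 0.0149). NDC80 read 9.82, 9.82 and 9.76 with c-Jun siRNA plus TNFα, 9.85, 9.75 and 9.89 with c-Jun siRNA plus vehicle, 9.62, 9.72 and 9.68 with control siRNA plus TNFα, and 9.84, 9.79 and 9.84 with control siRNA plus vehicle, where control siRNA plus TNFα alone was low, and changed by 0.13 ± 0.041 (SE; adjusted p = 0.0248). CCNA2 rose at 0.12 (adjusted p = 0.0195). Over the 36 genes the c-Jun siRNA fold changes under TNFα and in vehicle correlated at r = 0.80, again as a description across genes, with no r taken over all genes.

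AURKB, CENPA, CENPE, KIF11, UBE2C, FOXM1 and HMMR were called in every fit without 1 array. CCNA2 and NDC80 ended in 4 fits, BUB1 in 2 (without replicate 2 of either group), CENPF in 2 (without replicate 3 of either group) and MAD2L1 in 1 (without control siRNA replicate 3), at values from -0.13 to 0.13. With the position column as a block 10 genes were called. Within column 7, and within column 9, which hold 3 arrays each for this comparison, limma called 0 of the 36, with 11 and 8 at an unadjusted p under 0.05, and the medians were 0.03 and 0.00.

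The 4 comparisons share arrays, and 5 genes were called in all 4 comparisons: AURKB, MAD2L1, CENPA, KIF11 and UBE2C. The number of comparisons in which a gene was called was not counted over all genes. The counts in this paragraph therefore have no background share and are not a trait of mitosis genes. With the position column as a block none of the 5 was called in all 4: AURKB, CENPA, KIF11 and UBE2C were not called for TNFα with the c-Jun siRNA, nor MAD2L1 and KIF11 for the c-Jun siRNA in vehicle. Without the block, MAD2L1 and CENPA fell with both agents. AURKB and UBE2C rose with TNFα, with the exceptions after centring given above, and fell with the c-Jun siRNA, and KIF11 did the opposite. CENPF and FOXM1 were called in 3. At the other end, 10 genes were called in none: CDK1, CCNB1, CCNB2, AURKA, ESPL1, KIF23, ANLN, PRC1, ECT2 and MKI67. CDK1 read 9.75, 9.71 and 9.62 with c-Jun siRNA plus TNFα, 9.68, 9.50 and 9.68 with c-Jun siRNA plus vehicle, 9.83, 9.73 and 9.75 with control siRNA plus TNFα, and 9.65, 9.74 and 9.80 with control siRNA plus vehicle, and CCNB1 read 10.92, 11.01 and 10.94 with c-Jun siRNA plus TNFα, 10.99, 10.95 and 10.999 with c-Jun siRNA plus vehicle, 11.06, 10.96 and 11.05 with control siRNA plus TNFα, and 11.10, 11.04 and 11.02 with control siRNA plus vehicle. Their groups overlapped in nearly all pairs, and their fold changes ranged from -0.11 to 0.07 for CDK1 and from -0.07 to -0.02 for CCNB1. MKI67 reached 0.13 (adjusted p = 0.0812) with TNFα under the c-Jun siRNA, without passing.

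The promoter letters were counted by response too, as a description. Of the 17 genes with a window that fell with TNFα under the control siRNA, 14 held CHR letters, and of the 11 that did not pass, 9 did. CCAAT stood in the same numbers, 14 and 9. With the c-Jun siRNA in vehicle, 7 of 9 that fell and 15 of 19 that did not pass held CHR letters. For TNFα under the c-Jun siRNA it was 6 of 6 that fell and 16 of 21 that did not pass. For the c-Jun siRNA under TNFα it was 3 of 5 and 16 of 19. Among rises, CHR letters stood in 0 of 1 with TNFα under the control siRNA and 1 of 2 under the c-Jun siRNA. With the c-Jun siRNA they stood in 1 of 1 rise in vehicle and 4 of 5 under TNFα.

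Other genes of mitosis were read from 6 further lists. TNFα under the control siRNA changed 35.7% of all genes and 59.7% of the brighter 8979. The c-Jun siRNA changed 28.9% of all genes in vehicle and 28.5% under TNFα (51.5% and 50.7% of the brighter 8979). Of 21 other spindle motor and microtubule genes, TNFα under the control siRNA lowered 16 and raised 0 (76.2% changed), with a median of -0.11. The c-Jun siRNA in vehicle lowered 12 and raised 0 of them (57.1%), with a median of -0.17. NUMA1, which anchors spindle poles, fell by 0.51 with TNFα under the control siRNA and by 0.38 under the c-Jun siRNA. KIF18B, a kinesin that trims astral microtubules, fell by 0.43 with the c-Jun siRNA in vehicle and by 0.26 under TNFα. Of 26 other centromere and kinetochore genes, 7 fell and 3 rose with TNFα under the control siRNA (38.5% changed). With the c-Jun siRNA under TNFα, 1 fell and 8 rose (34.6%). SPC24, a subunit of the NDC80 complex, fell by 0.52 with TNFα under the control siRNA and by 0.44 under the c-Jun siRNA. CENPI fell by 0.36 with TNFα under the control siRNA, and CENPQ rose by 0.52 with the c-Jun siRNA under each treatment.

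Among 19 other entry regulators, 6 fell and 2 rose with TNFα under the control siRNA (42.1% changed). WEE1, the kinase that places the inhibitory phosphate on CDK1, fell by 0.36 there and was 0.44 higher with the c-Jun siRNA under TNFα; its interaction was 0.26 (adjusted p = 0.00631). MASTL, the Greatwall kinase, rose by 0.34 and CDC25A by 0.29 with TNFα under the control siRNA. Of 18 condensin and cohesin genes 8 fell and 2 rose with TNFα under the control siRNA (55.6%). With the c-Jun siRNA in vehicle STAG2 fell by 0.44 while NCAPD2, a condensin subunit, rose by 0.43. Of 18 anaphase-promoting complex genes 4 fell and 1 rose with TNFα under the control siRNA (27.8%), with ANAPC4 falling by 0.36. Of 13 other cytokinesis genes 2 fell and 1 rose with TNFα under the control siRNA (23.1%), and 6 fell and 2 rose with the c-Jun siRNA in vehicle (61.5%). The anaphase-promoting complex and cytokinesis shares with TNFα under the control siRNA lay below the 35.7% of all genes. Of these further lists, only the spindle list (76.2%) lay above the 59.7% of the brighter 8979 genes.

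**Figure D5:**
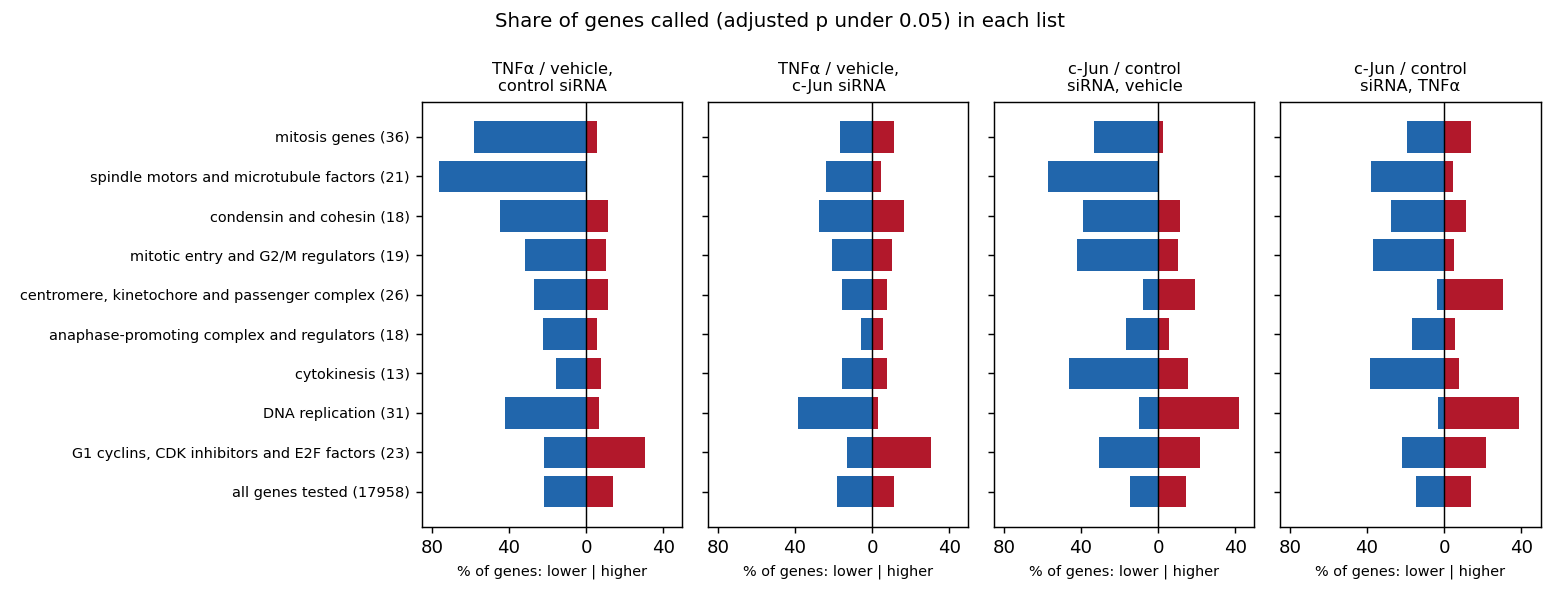
For the 36 mitosis genes and 8 other lists, bars give the percent of measured genes that were lower (blue, left) or higher (red, right) at an adjusted p under 0.05 in each of 4 comparisons, with all 17958 genes in the bottom row. The mitosis genes and the spindle motor list have the highest shares of falls with TNFα under the control siRNA.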

How the data were processed

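RNA of 12 BT549 samples was measured on Affymetrix human gene arrays. The authors' deposited values, per the labels and the files, are log2 expression for 33297 probe sets (base inferred from their range, 2.27 to 13.97). Per the submitters' processing notes, the tools included Affymetrix Expression Console 1.1 and PLIER, with no role given. No further normalisation or filter was applied. Probe sets with 1 symbol (19181) gave 17958 genes, the brightest of several for 895 genes. Probe sets with several symbols (2055) or none (12061) stayed out. limma 3.58.1 in R 4.3.3 fitted 1 mean per group to all 12 arrays, with a mean-variance trend, 8 residual and 9.29 prior degrees of freedom, and two-sided tests. Adjusted p-values are Benjamini-Hochberg over 17958 genes, and a gene was called at under 0.05. The procedure was tested on simulated data. The members and lists were chosen with earlier results of these data known. Array values are printed for JUN, for up to 4 called rises and 4 called falls per comparison with the largest changes, for the called interactions, and for CDK1 and CCNB1. Other lists name up to 3 genes per comparison. Nothing in the labels tells whether replicates came from different cultures, so the p-values cover only the spread among the samples given, which may be technical. Same-numbered samples did not deviate together (r from -0.06 to 0.09 over 18 pairs). The number of arrays limits the precision. Alternatives (28, plus 3 within position columns chosen after seeing the data) changed the normalisation, floor, filters, probe sets, variance model, threshold, blocks and arrays used. Tables and plots used Python 3.11.15, pandas 2.3.3 and matplotlib 3.10.9.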

Additional observations from a re-analysis of the deposited data

Results flagged for a closer look

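The TNFα effect differed between the siRNAs for 3 of the 36 mitosis genes by the interaction test, the effect under the c-Jun siRNA minus that under the control siRNA. For KIF4A the difference was 0.27 (adjusted p = 0.00559), for HMMR 0.22 (adjusted p = 0.0472) and for TTK 0.205 (adjusted p = 0.0349), all in log2 units by limma. Over all genes 5.47% were called. The call of KIF4A ended in 1 of the 27 other settings tried for it, the test against a change of 0.1, and those of HMMR and TTK ended in 17 and 18. No position column holds both groups of the c-Jun siRNA arm, so for these genes the column and TNFα cannot be told apart within that arm.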

How the results depend on the processing

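No called value changed direction under another setting. Over the other settings, the median log2 fold change of the 36 genes ranged from -0.11 to -0.09 for TNFα with control siRNA, from -0.06 to -0.01 for TNFα with c-Jun siRNA, from -0.09 to -0.045 for c-Jun siRNA in vehicle, from -0.002 (without c-Jun siRNA plus TNFα replicate 1) to 0.03 for c-Jun siRNA under TNFα, and from 0.04 to 0.09 for the interaction. Counts of genes called moved more. For TNFα with control siRNA (23) they were 15 without the mean-variance trend, 14 at an adjusted p under 0.01 and 7 in the treat test against a change of 0.1. They were 19 with the position column as a block, and 15 to 22 with 1 array left out. For TNFα with c-Jun siRNA (10) they were 6 with a floor of 4, without the trend, at 0.01 and with the second-run array averaged, 2 by treat, 2 with the position column as a block, and 7 to 10 with 1 array left out. For c-Jun siRNA in vehicle (13) they were 4 by treat, 8 with the column as a block, 3 within column 5, and 10 to 13 with 1 array left out. For c-Jun siRNA under TNFα (12) they were 7 at 0.01, 3 by treat, 0 within column 7 and within column 9, and 8 to 12 with 1 array left out. For the interaction (3) they were 1 with arrays centred, with the floor, without the trend, at 0.01, with the replicate block and with the column as a block, 5 with the dimmest 50% of genes left out, 0 by treat (3 at an unadjusted p under 0.05), and 1 to 5 with 1 array left out. Centring on array medians changed TNFα with c-Jun siRNA to 1 higher and 7 lower, against 4 and 6, and c-Jun siRNA in vehicle to 2 higher and 9 lower, against 1 and 12. Fits of only the groups compared give no interaction. The replicate block, whose numbers do not pair the samples, gave 21, 9, 13 and 12 calls in the pairwise comparisons. Stricter thresholds and columns with fewer arrays call less by construction; for the other settings the cause was not tested.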

Other observations

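Genes of other cell cycle phases were read from lists of DNA replication and G1 genes, with no test of their difference from the mitosis genes. With TNFα, 48.4% and 52.2% of these lists changed under the control siRNA (35.7% of all genes, 59.7% of the brighter 8979). Under the c-Jun siRNA 41.9% and 43.5% did (29.6% and 51.2%). With the c-Jun siRNA, 51.6% and 52.2% changed in vehicle (28.9% and 51.5%), and 41.9% and 43.5% under TNFα (28.5% and 50.7%). Of 31 DNA replication genes, TNFα lowered 13 and raised 2 with the control siRNA, with a median of -0.10, and lowered 12 and raised 1 with the c-Jun siRNA. The c-Jun siRNA raised 13 and lowered 3 of them in vehicle and raised 12 and lowered 1 under TNFα, with medians of 0.06 and 0.09, against -0.01 and 0.00 over all genes. CDC6, which loads the replicative helicase, rose by 0.55 with the c-Jun siRNA under TNFα and by 0.44 in vehicle, and TYMS, thymidylate synthase, by 0.47 and 0.43. PRIM1, a primase subunit, fell by 0.38 with TNFα under the control siRNA. Of 23 G1 genes, TNFα raised 7 and lowered 5 with the control siRNA and raised 7 and lowered 3 with the c-Jun siRNA, and the c-Jun siRNA raised 5 and lowered 7 in vehicle and raised 5 and lowered 5 under TNFα. CDKN1A, the CDK inhibitor p21, rose by 1.24 with TNFα under the control siRNA and by 1.15 under the c-Jun siRNA, and fell by 0.93 with the c-Jun siRNA under TNFα and by 0.84 in vehicle. CDK6 rose by 0.91 with TNFα under the control siRNA and, with the c-Jun siRNA, by 0.55 under TNFα and by 1.12 in vehicle, and its interaction was -0.57 (adjusted p = 7.28e-06). CCND1, cyclin D1, rose by 0.88 with TNFα under the control siRNA and, with the c-Jun siRNA, by 0.50 under TNFα and by 0.86 in vehicle, with an interaction of -0.36 (adjusted p = 0.0013).

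The 3 mitosis genes without a probe set of their own were read on probe sets that name another gene too, with p-values adjusted over all 33297 probe sets. The probe set of BUB1B, a checkpoint protein, and BUB1B-PAK6 changed by -0.22 (adjusted p = 0.00216) with TNFα under the c-Jun siRNA and by -0.20 (adjusted p = 0.00266) under the control siRNA. That of KIF20A, a cytokinesis kinesin, and CDC23 changed by -0.23 (adjusted p = 9.9e-05) under the c-Jun siRNA and by -0.16 (adjusted p = 0.00123) under the control siRNA. That of PTTG1, securin, and PTTG3P changed by 0.03 (adjusted p = 0.658) under the c-Jun siRNA and by -0.13 (adjusted p = 0.00805) under the control siRNA. A second CENPA probe set, shared with SLC35F6, had -0.12 (adjusted p = 0.0478) and -0.10 (adjusted p = 0.0918) in the same order. A dimmer probe set naming CDC20 alone, at a mean level of 7.37, had -0.13 (adjusted p = 0.447) and -0.15 (adjusted p = 0.341) in that order. One naming BIRC5 alone, at a mean level of 5.39, had 0.06 (adjusted p = 0.822) and -0.005 (adjusted p = 0.986), so the TNFα calls of CDC20 and BIRC5 did not pass on these. A probe set shared by KIF4A and KIF4B had -0.10 (adjusted p = 0.297) with TNFα under the control siRNA, at a mean level of 7.15. Its interaction was 0.12 (adjusted p = 0.646), and its change with the c-Jun siRNA in vehicle was -0.13 (adjusted p = 0.154), so neither passed.

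As a description over 12 arrays that share their groups, the genes whose levels followed CDK1 most closely were GCA, COG3, HNRNPH2, IGF1 and ZNF81, with Pearson r from 0.86 to 0.88. For CCNB1 they were PLEKHM3, CHST12, PCDHA10, LINC01560 and DLL3, with r from 0.87 to 0.90. None is a mitosis gene on the list. These genes are the top of a ranking over all genes tested, where a high r can come from the search alone. No test was made, and CDK1 and CCNB1 were called in no comparison. GCA, IGF1, PCDHA10, LINC01560 and DLL3 averaged 5.07, 3.84, 5.66, 5.87 and 5.52, below the median gene at 6.97, and the others lay above it.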
